A study of Mus musculus with 26 samples.

Results

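The genes described here encode the motile cilium of the mouse choroid plexus (ChP) and the transport machinery that builds it. They were the genes whose symbols begin with Cfap, Dnah, Dnai, Dnaaf, Drc, Rsph, Ift, Bbs or Tekt followed by the usual member name, together with Hydin, Foxj1, Spag6l, Spag16, Spag17, Rfx2, Rfx3 and Mcidas. Of 109 such genes in the table of 55416, 96 had a mean of at least 1 CPM (counts scaled to the library total) both in controls and in lesioned mice, as did 13697 genes in all. The 13 genes under this minimum were Mcidas, Dnah7a, Dnah10, Dnah14, Dnah17, Dnaaf6, Dnaaf6b, Cfap97d1, Cfap100, Rsph6a, Rsph14, Tekt3 and the antisense transcript Ift88os.

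ChP of the 4th ventricle was taken from C57Bl6J mice that had undergone sham surgery (Ctrl, 12 mice) or an electrolytic lesion of the suprachiasmatic nuclei, the site of the master circadian clock (SCNx, 12 mice). The mice were kept in constant darkness and 1 mouse of each group was killed every 4 h from CT0 to CT44, where CT stands for circadian time. The remaining group (KO) was of the genotype FoxJ1-ERT2-Cre+/-; Bmal1fl/fl, received tamoxifen in the diet, lived in a light-dark cycle and had 1 mouse at ZT7 (day) and 1 at ZT18 (night), ZT being the time after lights-on. ERT2-Cre driven by Foxj1 removes the clock gene Bmal1 (listed as Arntl) from cells that form motile cilia, and Foxj1 is itself one of the genes described here. The KO mice differed from Ctrl and SCNx also in that their tissue was cut by laser from frozen sections and their libraries were made with a kit for total RNA of low input in place of polyadenylated RNA, and by the study's methods they were older, so that genotype, line, age, tamoxifen, lighting, sampling and kit cannot be told apart in any KO value. All mice were adult males. Because each time point was a single mouse, p-values rest on the spread between mice around the fitted curve or mean.

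A motile cilium has 9 doublet microtubules around a central pair. Outer and inner dynein arms on the doublets make them slide, radial spokes and the central apparatus set the beat, and the nexin-dynein regulatory complex links neighbouring doublets. Intraflagellar transport (IFT) carries building parts up the cilium with the IFT-B complex and back with IFT-A, and the BBSome moves membrane proteins. The forkhead factor FOXJ1 and the RFX factors, which bind the X-box in promoters, switch on these genes. ChP epithelium carries tufts of cilia, and the ependyma next to it carries longer beating ones, so both tissues can contribute these transcripts in a bulk sample.

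The Ctrl and SCNx libraries held 38751162 to 49527614 estimated counts and the KO libraries 17425176 and 18059213. Transthyretin (Ttr), which defines ChP epithelium, was at 81065 to 93286 CPM in Ctrl and 55663 to 91759 CPM in SCNx, and at 51402 and 54439 CPM in KO. The 2 libraries Ctrl CT4 and SCNx CT32 carried more astrocyte transcripts than the others (703 and 1008 CPM summed over 5 markers, against medians of 55.1 and 51.0 CPM), and Ctrl CT16 and SCNx CT0 carried hepatocyte transcripts (2078 and 10501 CPM over 10 markers, against medians of 4.17 and 7.08 CPM). Counts of genes with a called rhythm in Ctrl are given below with and without these libraries. Level differences of several genes are also given without SCNx CT32. Amplitudes, fitted peaks and day-night differences are given only with all libraries. Arntl ran from 1.97 to 39.2 CPM in Ctrl and from 3.23 to 21.5 CPM in SCNx, and was at 12.9 and 10.7 CPM in KO, inside both ranges. Gene-level counts do not separate the floxed exon, and KO stands below for the label of these libraries.

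Promoters of 78 of the 96 genes were found in RefSeq's table for GRCm38.p6 (250 bases before to 50 bases after the start of transcription), 4 of them under an older symbol. The RFX site was searched on both strands as the paired sites GTTNCC and GGNAAC with 0 to 3 letters between them. It was present in 4 of the 78 genes (5.13%) and in 0.936% of all 27025 genes of the table. The 4 promoters are shown because they hold the binding motif of the factors that are known to switch on ciliary genes, with the motif in capitals, 5′ to 3′.
Ift57, chr16:49699044-49699343, + strand: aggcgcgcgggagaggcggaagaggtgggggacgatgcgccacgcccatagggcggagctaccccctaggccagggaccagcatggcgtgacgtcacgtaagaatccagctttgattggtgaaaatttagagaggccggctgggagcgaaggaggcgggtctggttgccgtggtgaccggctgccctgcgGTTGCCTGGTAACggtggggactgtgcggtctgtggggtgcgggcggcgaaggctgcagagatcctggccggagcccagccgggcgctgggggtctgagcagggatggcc
Bbs7, chr3:36613340-36613639, - strand: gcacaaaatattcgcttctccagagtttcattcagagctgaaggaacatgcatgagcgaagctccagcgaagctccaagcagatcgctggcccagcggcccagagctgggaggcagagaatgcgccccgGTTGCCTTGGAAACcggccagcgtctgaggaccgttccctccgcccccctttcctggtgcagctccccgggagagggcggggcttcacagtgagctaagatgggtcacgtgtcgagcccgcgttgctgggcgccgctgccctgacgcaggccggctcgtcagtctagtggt
Cfap298, chr16:90934800-90935099, - strand: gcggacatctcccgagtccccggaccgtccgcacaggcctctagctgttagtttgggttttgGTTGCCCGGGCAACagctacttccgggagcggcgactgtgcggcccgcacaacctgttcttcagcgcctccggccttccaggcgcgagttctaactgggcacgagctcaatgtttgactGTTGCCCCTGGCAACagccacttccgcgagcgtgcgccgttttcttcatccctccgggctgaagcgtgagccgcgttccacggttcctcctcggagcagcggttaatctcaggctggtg
Cfap20dc, chr14:8666241-8666540, - strand: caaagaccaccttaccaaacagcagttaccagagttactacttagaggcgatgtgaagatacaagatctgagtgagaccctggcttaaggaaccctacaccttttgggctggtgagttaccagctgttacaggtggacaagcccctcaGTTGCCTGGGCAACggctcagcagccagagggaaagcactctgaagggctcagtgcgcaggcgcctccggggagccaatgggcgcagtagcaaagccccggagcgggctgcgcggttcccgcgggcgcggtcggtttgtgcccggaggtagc
Ift57 encodes a subunit of IFT-B, Bbs7 one of the BBSome, and Cfap298 a factor needed to assemble dynein arms, and its window held the motif at 2 places. The single RFX site GTTGCCA, which can overlap the paired motif, occurred in 18 of the 78 genes (23.1%) against 5.02% of all genes. The 2 forkhead sequences TGTTTAC and TGTTTGT were found in 4 genes (5.13%, all genes 11.2%), and the E-box CACGTG, the core sequence that the BMAL1 and CLOCK pair is known to bind, in 7 genes (8.97%, all genes 8.09%). Of the 10 genes with a called rhythm in Ctrl that are described below, 9 had a promoter in the table, and 1 each held the single RFX site (Hydin), a forkhead sequence (Cfap43) and the E-box (Cfap47). The promoters of Hydin, with the single RFX site of the reverse strand in capitals, and of Cfap47, with its 2 E-boxes in capitals, are shown because both genes carried a called rhythm.
Hydin, chr8:110266727-110267026, + strand: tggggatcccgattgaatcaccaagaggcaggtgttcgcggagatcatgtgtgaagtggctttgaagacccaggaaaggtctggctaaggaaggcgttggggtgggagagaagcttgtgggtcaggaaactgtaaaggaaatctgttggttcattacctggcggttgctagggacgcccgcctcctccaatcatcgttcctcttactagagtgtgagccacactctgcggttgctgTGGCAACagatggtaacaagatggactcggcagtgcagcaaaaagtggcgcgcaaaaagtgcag
Cfap47, chrX:79517302-79517601, - strand: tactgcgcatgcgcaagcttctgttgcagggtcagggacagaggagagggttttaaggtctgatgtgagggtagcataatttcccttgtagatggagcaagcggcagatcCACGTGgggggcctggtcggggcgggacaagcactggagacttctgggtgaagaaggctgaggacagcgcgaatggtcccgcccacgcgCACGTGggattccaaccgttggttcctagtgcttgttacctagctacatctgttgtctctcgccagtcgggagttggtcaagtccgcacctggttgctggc
These matches describe the letters of the windows only.

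The levels of the ciliary genes in Ctrl spanned a wide range, also when divided by the length of the longest transcript in GENCODE M21. Drc7, a linker protein of the nexin-dynein regulatory complex, stood highest at 117 ± 9.41 CPM per kb (SD, n = 12). It was followed by the radial spoke genes Rsph9 (76.9 ± 4.68) and Rsph1 (68.2 ± 4.27 CPM per kb), which overlapped in their SD, and by Foxj1 at 64.5 ± 6.43 CPM per kb, which overlapped with Rsph1. The highest genes of the other roles were Cfap36 (59.1 CPM per kb) among the remaining Cfap genes, Cfap126 (54.9) among the proteins inside the doublets, Cfap298 (44.9) in arm assembly, Ift74 (33.7) in IFT-B, Spag6l (24.2) in the central apparatus, Ift43 (19.5) in IFT-A, Dnai4 (19.3) in the inner arm, Bbs1 (13.4) in the BBSome and Dnai2 (8.77) in the outer arm. Without division by length, the highest of their roles were also Cfap65 (129 CPM), Ift80 (95.6 CPM), Rsph4a (93.2 CPM), Ift122 (78.6 CPM), Cfap52 (59.6 CPM) and Bbs10 (7.13 CPM). The regulators Rfx3 and Rfx2 were at 10.1 ± 1.0 and 6.95 ± 0.57 CPM per kb, and Mcidas, which acts upstream of Foxj1 when cells first become multiciliated, had 6 counts in all 24 libraries together.

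**Figure D1:**
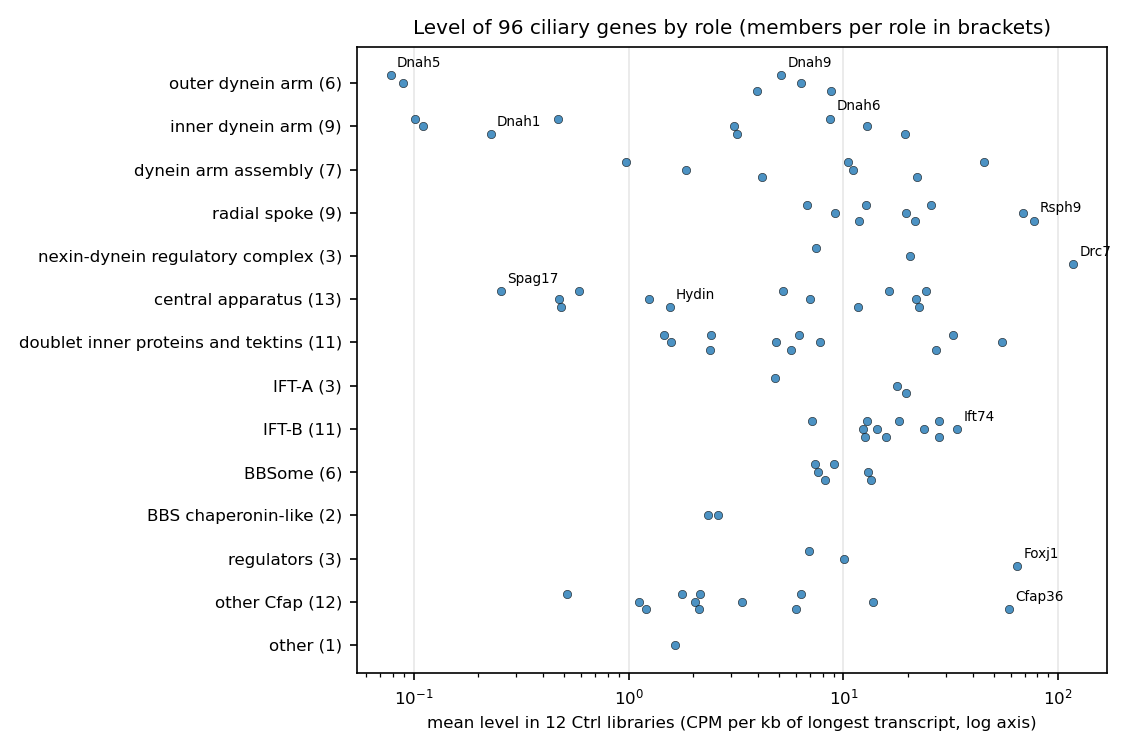
Mean level of each of the 96 genes in the 12 Ctrl libraries, in CPM per kb of longest transcript on a log axis, by role. Dynein heavy chains (Dnah) take the lowest places, from 0.0782 CPM per kb for Dnah5, and Drc7 the highest at 117.

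The dynein heavy chains, the motor proteins of the arms, spanned a wide range of their own. The chains Dnah6, Dnah9, Dnah11, Dnah7b and Dnah2 lay between 3.09 and 8.68 CPM per kb, of which Dnah6 (an inner arm chain) was the highest. Dnah5, Dnah8, Dnah12, Dnah3 and Dnah1 lay between 0.0782 and 0.229 CPM per kb, and Dnah7c lay between these sets at 0.471 CPM per kb. Dnah5 and Dnah9 are both known as chains of the outer arm, yet their levels were 1.22 ± 0.43 and 71.0 ± 18.7 CPM (SD, n = 12 Ctrl), for transcripts of 15637 and 13798 nt. Dnah10, a further inner arm chain, stayed under the minimum with 0.922 CPM in Ctrl. The central apparatus gene Spag17 was also low (0.256 CPM per kb), unlike its partners Spag16 (16.3) and Spag6l (24.2 CPM per kb). Dnah7b and Dnah7c are close copies, and so are Rsph3a and Rsph3b, and reads may have been split between the copies. Dnah2os lies antisense to Dnah2, and without a stated use of strand in counting their reads cannot be told apart. In a bulk sample a lower level can mean fewer cells of a type or less RNA per cell, which cannot be told apart.

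The first comparison asked whether the lesion changed the level of ciliary genes over all times of day. None of the 96 genes passed edgeR's quasi-likelihood test at an adjusted p of 0.05 or of 0.25, as was the case for all 13697 genes (0.0%). At an unadjusted p under 0.05 there were 6 ciliary genes (6.25%), against 9.37% of all genes. DESeq2 and limma-trend also called 0 of the 96 genes, while DESeq2 called 14 of all genes. The median log2 fold change of SCNx over Ctrl was 0.01 both for the ciliary genes and for all genes, with 53 of the 96 above 0 (55.2%, all genes 56.5%) and 43 below it (all genes 43.5%). The fitted values ran from -0.23 (Dnah2os) to 0.67 (Dnah5).

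The smallest p belonged to Dnah7c, an inner arm chain. Its libraries ran from 4.01 over a median of 5.47 to 8.10 CPM in Ctrl and from 4.32 over 7.56 to 10.9 CPM in SCNx, and the groups overlapped. Its log2 fold change was 0.35 ± 0.14 (SE, n = 12 per group, edgeR adjusted p = 0.466). Rsph9, a head protein of the radial spoke, had the smallest p among the genes with lower fitted values: 66.6, 74.6 and 82.4 CPM as lowest, median and highest in Ctrl and 45.3, 65.1 and 78.2 CPM in SCNx, with a log2 fold change of -0.16 ± 0.06 (edgeR adjusted p = 0.485). Here too the groups overlapped, and the lowest library was SCNx CT32. Dnai3 (-0.14), Foxj1 (-0.11), Rsph1 (-0.09) and Cfap410 (-0.06) followed among the lower ones and Bbs2 (0.08), Dnah8 (0.27), Dnah3 (0.43) and Cfap54 (0.32) among the higher ones, and edgeR's adjusted p was at least 0.489 for each of them. Without SCNx CT32, Rsph1 stood at -0.05 and Foxj1 at -0.08.

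The largest fitted differences rested on 1 library. Dnah5 was at 0.932 to 2.56 CPM in 11 SCNx libraries and at 9.24 CPM in SCNx CT32, and Dnah12 (at most 1.77 and then 7.21 CPM), Dnah1 (at most 3.23 and then 16.7 CPM) and Dnah3 (at most 2.25 and then 4.78 CPM) had the same single high library. Without SCNx CT32 the log2 fold changes of Dnah5, Dnah12, Dnah1 and Dnah3 went from 0.67, 0.50, 0.45 and 0.43 to 0.08, 0.02, -0.03 and 0.20. SCNx CT32 was also the library with the most summed ependymal markers other than ciliary genes (470 CPM over 9 genes, SCNx median 197 CPM), a list that shares Aqp4 with the astrocyte list. It also had the highest sums of the 24 libraries for astrocyte (1008 CPM), neuron (625 CPM) and oligodendrocyte markers (281 CPM) and the lowest for ChP markers (114345 CPM). In Ctrl CT4, whose ependymal markers summed to 309 CPM, Dnah5 and Dnah12 were at 1.64 and 1.5 CPM, inside the range of the other Ctrl libraries. None of the 9 ependymal markers was at 0 in either library set. The part of ependyma and of neighbouring brain tissue in these values was not tested.

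Genes with long transcripts shared a direction. All 12 ciliary genes with a transcript of at least 10000 nt (11 dynein heavy chains and Hydin, 12.5% of the 96 against 2.66% of all genes tested) were fitted above Ctrl in SCNx, at a median of 0.27 on the log2 scale, and 11 of the 12 without SCNx CT32. Over all 364 tested genes of this length 90.4% were above 0 and the median was 0.15, with all 24 libraries. This share was not counted without SCNx CT32. Among the 84 shorter ciliary genes 41 were above 0 (48.8%, all shorter genes 55.6%) and the median was -0.00182 (all shorter genes 0.00955). Long transcripts of all kinds thus had the same direction as the dynein heavy chains, and the part of transcript length in it was not tested.

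The second comparison asked which ciliary genes followed a 24 h rhythm. In Ctrl, 10 of the 96 genes passed the edgeR test for a 24 h cosine at an adjusted p of 0.05 (10.4%), a share close to that of all genes (10.7%), and 45 passed at 0.4 (46.9%, all genes 41.7%). They were Spag16, Hydin, Cfap54 and Cfap47 of the central apparatus, Tekt5 and Tekt2, the tektins inside the doublets, Ift46 of IFT-B, Ift140 of IFT-A, Dnah9 of the outer arm and Cfap43. The peaks of all 10 fell between CT4 and CT10, in the subjective day. Of all genes, 3.37% were called with a peak in these hours. The hours from CT4 to CT10 were not part of the planned tests and span the 10 called peaks. Shares for these hours, here and below, are therefore descriptions.

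Spag16, which holds the central pair together, ran from 42.6 (CT44) over a median of 58.5 to 72.5 CPM (CT8) in Ctrl. Both cycles had the same shape, with 72.5 and 70.2 CPM at CT8 and CT32 against 45.6, 48.1, 50.4 and 42.6 CPM at CT16, CT20, CT40 and CT44. The fitted amplitude, which is the log2 distance from mean to peak, was 0.31 ± 0.05 (SE), 1.54-fold from trough to peak, with the peak at 7.35 h (edgeR adjusted p = 0.0038). In SCNx Spag16 ran from 45.4 (CT32) over 58.3 to 69.4 CPM (CT8) and had an amplitude of 0.03 ± 0.07. Its highest and lowest SCNx libraries thus fell at the same hour of the 2 cycles. The lowest, SCNx CT32, carried astrocyte transcripts, and SCNx amplitudes were not calculated without it.

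Tekt5 had the second-largest amplitude of the called genes, 0.51 ± 0.07, and the earliest peak, at 4.21 h (edgeR adjusted p = 0.0037). Its Ctrl libraries ran from 2.43 (CT16) over 4.16 to 5.98 CPM (CT4). Its SCNx libraries ran from 3.19 (CT40) over 4.21 to 5.84 CPM (CT8), with 3.41 CPM at CT32 and an amplitude of 0.10 ± 0.11. Ift46 ran from 47.2 (CT16) over 60.7 to 73.4 CPM (CT32) in Ctrl, with an amplitude of 0.25 ± 0.04 and a peak at 7.10 h (edgeR adjusted p = 0.0148). In SCNx it ran from 50 (CT32) over 58.4 to 74.4 CPM (CT8), with an amplitude of 0.03 ± 0.07 and again SCNx CT32 as the lowest library. Spag16, Tekt5 and Ift46 kept their calls in all 32, 31 and 32 other fits tried, with a highest adjusted p of 0.0497.

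Hydin encodes a giant protein of the central pair whose loss is known to cause hydrocephalus. It had the largest amplitude, 0.51 ± 0.11, 2.04-fold from trough to peak, with the peak at 8.07 h (edgeR adjusted p = 0.0179). Its Ctrl libraries ran from 14.4 (CT20) over 24.1 to 44.6 CPM (CT8), and CT32 reached 28.7 CPM. Cfap54 (31.6, 49.0 and 87.9 CPM), Cfap47 (8.67, 11.6 and 17.6 CPM) and Dnah9 (49.4, 67.5 and 121 CPM as lowest, median and highest) likewise had their highest Ctrl library at CT8 and their lowest at CT20, with amplitudes of 0.46 ± 0.11, 0.29 ± 0.09 and 0.35 ± 0.09. In SCNx these 4 genes were not called, and their fitted peaks stood at 1.60 to 2.25 h with amplitudes of 0.16 to 0.36. Their highest SCNx libraries were CT24 or CT28. All 4 have long transcripts, of at least 10000 nt for Hydin and Dnah9 and of 9903 and 9412 nt for Cfap54 and Cfap47. Other genes of at least 10000 nt had median deviations of 0.19 at Ctrl CT8 and -0.14 at Ctrl CT20. The part of transcript length in these rhythms was not tested.

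Cfap43, Tekt2 and Ift140 complete the list. Cfap43 ran from 25.9 over 34 to 52.3 CPM in Ctrl with an amplitude of 0.31 ± 0.08, and its peak at 9.75 h was the latest of the 10. Tekt2, a low gene at 1.36 to 3.43 CPM, had an amplitude of 0.38 ± 0.10, and Ift140 had the smallest one, 0.14 ± 0.03, between 28.2 and 38.1 CPM. Without Ctrl CT8, these 3 genes and Hydin, Cfap54, Cfap47 and Dnah9 lost their calls, with adjusted p between 0.0698 (Cfap43) and 0.239 (Dnah9), while Cfap20dc was called in addition to Spag16, Tekt5 and Ift46.

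**Figure D2:**
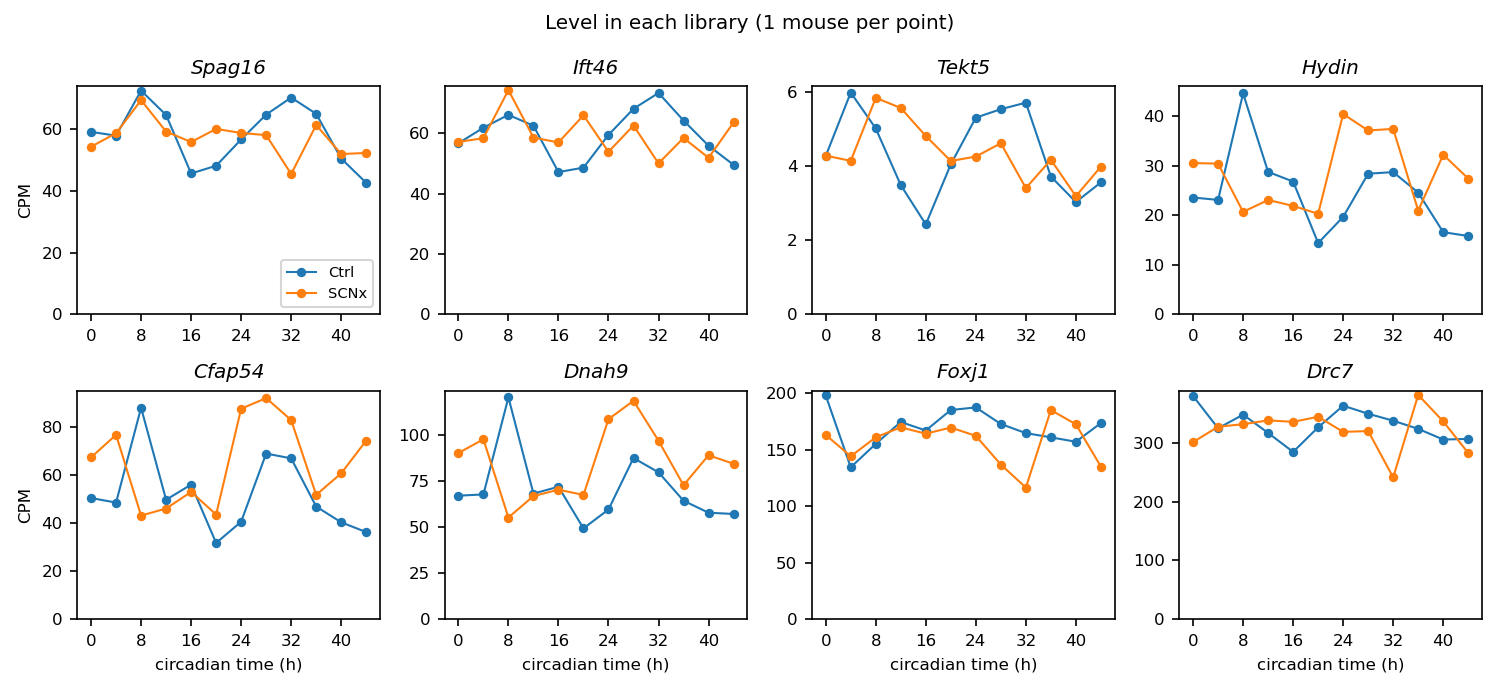
Level in CPM by circadian time, 1 mouse per point. Shown are 6 genes with a called rhythm in Ctrl, and Foxj1 and Drc7, not called with all 24 libraries. In Ctrl, Spag16 and Ift46 peak at or next to CT8 and CT32, while Hydin, Cfap54 and Dnah9 have a single highest library at CT8.

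The number of calls moved with single libraries. It fell to 3 without Ctrl CT44 (6.7% of all genes called), to 4 without CT8 (all genes 7.51%), and to 5 without CT20 (7.79%) and without CT24 (8.85%). It was 6 without CT12 (all genes 8.1%) and without CT28 (9.17%). It rose to 21 without SCNx CT32 (16.6% of all genes) and to 25 without both Ctrl CT4 and SCNx CT32, the libraries with astrocyte transcripts (all genes 16.5%), and these 25 included the 10. The 15 genes added without Ctrl CT4 and SCNx CT32 were Dnah1, Dnah2, Dnah7b, Dnah11 and Dnai3 of the dynein arms, Drc3 and Drc7, Spag17 and Cfap70 of the central apparatus, Bbs9, Cfap20dc, Cfap45, Cfap57, Cfap126 and Cfap206. Without both Ctrl CT16 and SCNx CT0, the libraries with hepatocyte transcripts, 12 were called (all genes 12.3%). DESeq2 called 18 of the 96 (18.8%, all genes 15%).

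Whether called or not, the fitted peaks of the ciliary genes gathered in the subjective day. In Ctrl, 61 of the 96 peaks (63.5%) lay between CT4 and CT10, 30 of them between CT6 and CT8, against 31.6% of all genes, and 11 lay between CT16 and CT22 (11.5%, all genes 29.1%). The mean of the 3 libraries at CT4, CT8 and CT12 was above that of the other 3 of the cycle in both cycles for 66 genes (68.8%, all genes 36.3%) and below it in both for 13 (13.5%, all genes 32.7%). By library, 75 of the 96 genes were above their own Ctrl median at CT8, 75 at CT28, 64 at CT32 and 65 at CT36, and 18, 18 and 21 were so at CT16, CT44 and CT4. Of all genes, between 47.1% (CT16) and 51.8% (CT36) were above their own median in each of these libraries. In SCNx, 22 peaks (22.9%) lay between CT4 and CT10, against 26.2% of all genes, and 26 between CT22 and CT4 (27.1%, all genes 27.6%). Genes of one library share its preparation, so these counts are descriptions without a test. The median difference of the day libraries CT8 and CT32 from the night libraries CT16, CT20, CT40 and CT44 was 0.19 on the log2 scale in Ctrl (all genes 0.00208) and 0.01 in SCNx (all genes -0.00229). The SCNx day value includes SCNx CT32, a library with astrocyte transcripts. The median deviation of the ciliary genes from their SCNx medians was 0.03 at CT8 and -0.11 at CT32. The SCNx peak shares and day-night difference were not calculated without SCNx CT32.

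**Figure D3:**
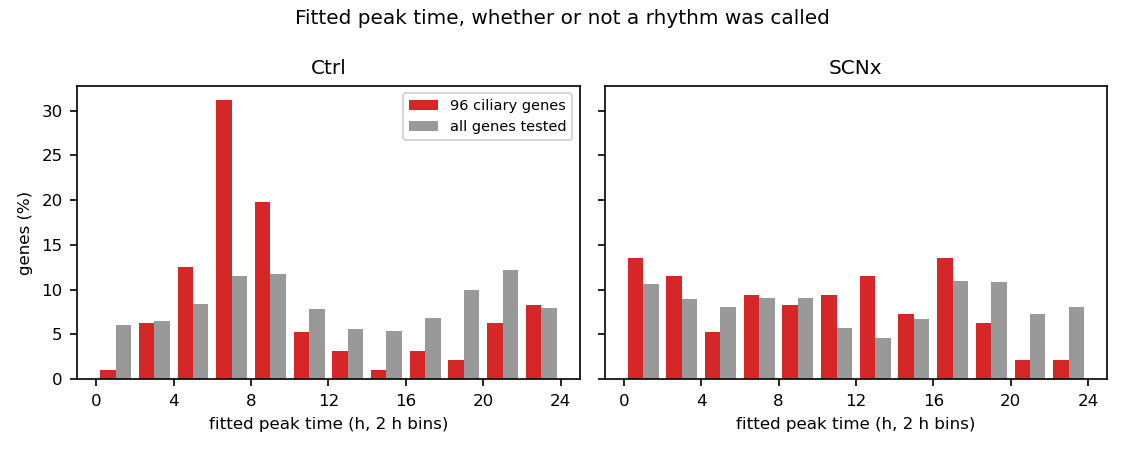
Share of fitted peak times in 2 h bins for the 96 ciliary genes and for all genes tested, in Ctrl and in SCNx. In Ctrl the bin from CT6 to CT8 holds 31.2% of the ciliary genes and 11.5% of all genes.

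**Figure D4:**
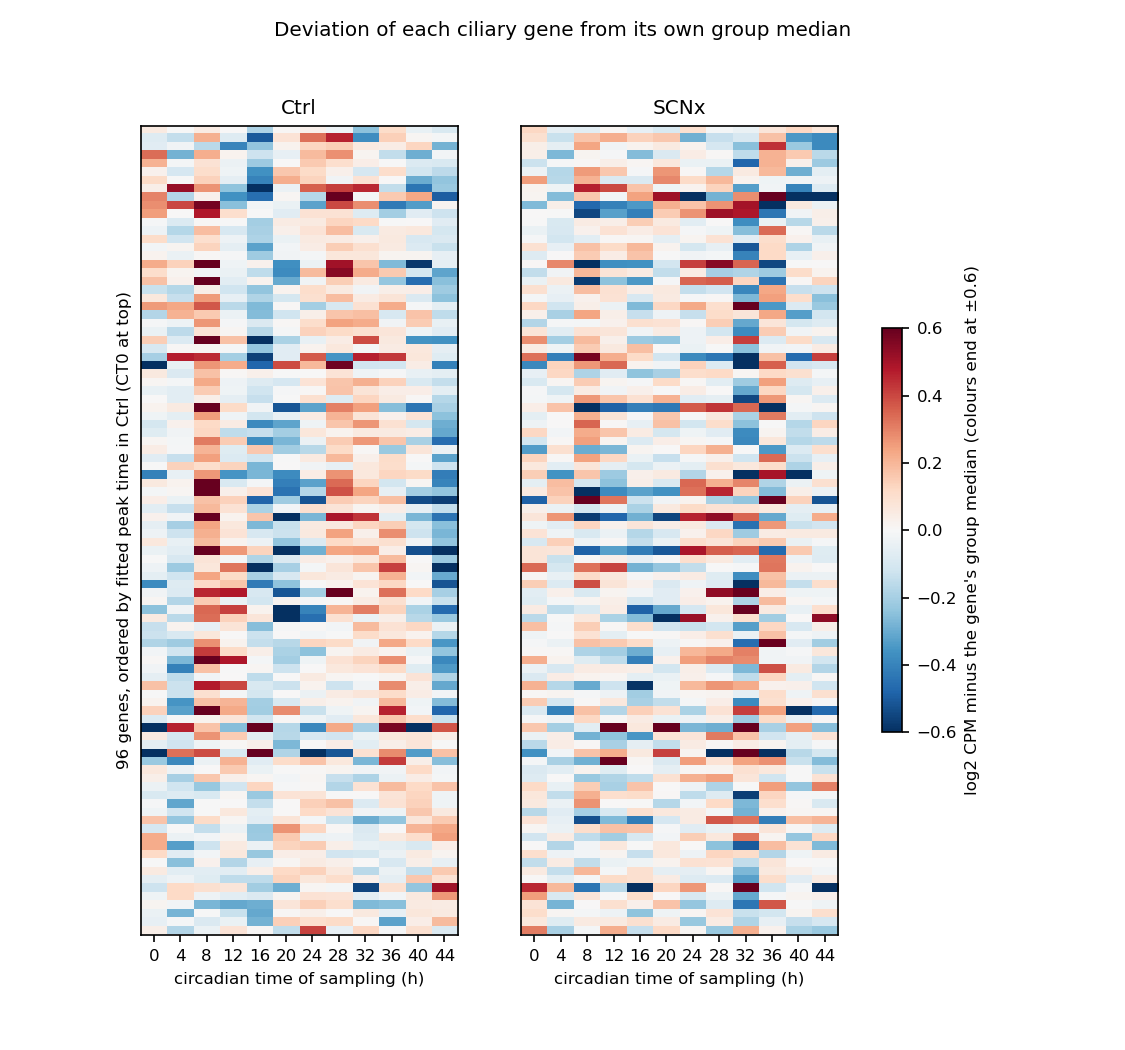
Deviation of log2 CPM of each of the 96 genes from its own median in Ctrl (left) and SCNx (right), by circadian time, with genes ordered by fitted peak time in Ctrl and colours ending at ±0.6. In Ctrl most rows are above their median at CT8 and CT28 and below it at CT16 and CT44, and in SCNx CT32 stands apart with both the highest and the lowest values of many rows.

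Long and short transcripts did not move alike within this pattern. The median deviation of the 12 long ciliary genes was 0.50 at Ctrl CT8 and -0.34, -0.30 and -0.33 at CT20, CT24 and CT40, and other genes of at least 10000 nt had medians of 0.19, -0.14, -0.10 and -0.16 in these libraries. In SCNx both sets were low at CT8 (-0.46 and -0.30) and CT36 (-0.35 and -0.27) and high at CT32 (0.35 and 0.37). The 84 shorter ciliary genes, with Cfap54 and Cfap47 among them, were at 0.12 at Ctrl CT8, -0.17 at CT16 and -0.13 at CT44. Over all genes of at least 10000 nt, 55.5% had a fitted Ctrl peak between CT4 and CT10 and 5.77% were called, so the share of peaks in these hours was raised for long transcripts in general. Among the shorter genes the share was 61.9% of the 84 ciliary genes against 31.0% of all.

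In SCNx, 0 of the 96 genes passed the edgeR test for a rhythm, as for all genes (0.0%), with 12 ciliary genes (12.5%, all genes 14.8%) at an unadjusted p under 0.05 and 18 (18.8%, all genes 22.4%) at an adjusted p under 0.4. DESeq2 and limma-trend called 0 of them. The smallest p belonged to Dnah1 (adjusted p = 0.189, amplitude 0.48 ± 0.30), whose SCNx CT32 library stood apart from the others, followed by Dnah7b, Cfap58, Cfap54 and Dnai4. The median amplitude was 0.13 in Ctrl (all genes 0.11) and 0.09 in SCNx (all genes 0.09), and 60 of the 96 genes had the larger amplitude in Ctrl (62.5%, all genes 56.1%). The test of the difference between the rhythms called 0 of the 96 genes, against 2.12% of all genes, and had 17 of them (17.7%, all genes 15.1%) at an unadjusted p under 0.05. DESeq2 called 1 and limma-trend 0. The smallest p were those of Cfap43 (edgeR adjusted p = 0.0818), Tekt5 (0.14), Cfap45 (0.147), Hydin (0.149) and Cfap54 (0.182). A loss of the rhythm of Spag16 in SCNx was thus not shown at this threshold (edgeR adjusted p = 0.185 for the difference).

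None of the 3 regulators tested carried a called rhythm in Ctrl, where the median amplitude of all genes was 0.11. Foxj1 ran from 134 (CT4) over 170 to 198 CPM (CT0) in Ctrl and from 116 (CT32) over 163 to 185 CPM in SCNx, its amplitude in Ctrl was 0.11 ± 0.06 with a peak at 21.1 h, and edgeR's adjusted p for a rhythm was 0.494. Rfx2 (24.3, 29.7 and 31.1 CPM) and Rfx3 (78.2, 92.4 and 106 CPM as lowest, median and highest in Ctrl) had amplitudes of 0.03 and 0.05. Drc7, the highest gene, ran from 285 over 326 to 380 CPM in Ctrl and had its lowest SCNx library at CT32 (242 CPM). With all 24 libraries neither Foxj1 nor Drc7 was called. Without Ctrl CT4 and SCNx CT32, Drc7 was called (edgeR adjusted p = 0.0218) and Foxj1 was not. Spag6l (53.0 to 66.9 CPM), Dnah6 (78.1 to 184 CPM) and the best expressed genes of IFT and the BBSome, Ift80, Ift122 and Bbs1, were not called either, and their adjusted p in Ctrl were 0.392, 0.104, 0.812, 0.601 and 0.891.

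A list of 63 tested ciliary genes outside the naming rule gave a like picture of levels, with 0 called between SCNx and Ctrl and a median of -0.00397 on the log2 scale. In Ctrl 9 of the 63 carried a called rhythm (all genes 10.7%), 5 of these 9 with a peak between CT4 and CT10. Of all 63 fitted peaks, 27 lay in these hours (all genes 31.6%). This is a smaller share than the 63.5% of the 96 genes of the naming rule. Enkur, a protein inside the doublets, had an amplitude of 0.46 ± 0.08 and a peak at 9.76 h. Lrriq1 was the 1 gene of the list whose rhythm differed between the groups (amplitudes of 0.51 in Ctrl and 0.14 in SCNx, edgeR adjusted p = 0.0144). The dynein light chain Dynll1, which also serves cytoplasmic dynein, peaked at 20.0 h.

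The last comparison set the KO libraries beside Ctrl, with no test because there was 1 mouse per time. Of the 96 genes, 13 were at least 2-fold above the Ctrl mean (13.5%, all genes 12.4%) and 7 at least 2-fold below it (7.29%, all genes 7.29%). Both KO libraries lay above all 24 Ctrl and SCNx libraries for 24 genes (25.0%, all genes 19.4%) and below all of them for 25 (all genes 24.8%). The median log2 difference was -0.00169 (all genes -0.00238). At least 8-fold above Ctrl were 3 genes (all genes 2.18%).

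The dynein heavy chains that were low in Ctrl were high in KO. Dnah12 was at 42.5 and 40.3 CPM at ZT7 and ZT18, against 0.571, 1.19 and 2.29 CPM as lowest, median and highest in Ctrl, a log2 difference of 5.15. Dnah5 was at 35.7 and 38.1 CPM (Ctrl at most 1.87 CPM, log2 difference 4.98), Dnah3 at 35.9 and 35.8 CPM (Ctrl at most 1.97 CPM, 4.72) and Dnah1 at 22.6 and 20.0 CPM (Ctrl at most 3.93 CPM, 2.88). Dnah8, the fifth low chain, differed by 0.69. The chains that were high in Ctrl differed less: Dnah6 by -0.06, Dnah2 by 0.05, Dnah11 by 0.45 and Dnah9 by 0.64, while Dnah7b and Dnah7c differed by 1.77 and 1.72. Spag17 was at 11.4 and 14.4 CPM against at most 2.88 CPM in Ctrl (2.70). Of the genes under the minimum, Dnah10 (14.1 and 17.3 CPM), Dnah7a (7.92 and 6.81 CPM), Cfap100 (12.2 and 7.86 CPM) and Dnah14 (2.93 and 2.94 CPM) were also above their Ctrl means of 0.922, 0.588, 0.924 and 0.388 CPM. Values of the genes under the minimum are scaled to the library total alone, unlike those of the other genes of this paragraph.

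Beside these values, the 9 ependymal markers summed to 512 and 584 CPM in KO (Ctrl median 189, highest 309 CPM), the astrocyte markers to 784 and 929 CPM, the neuron markers to 376 and 569 CPM, the oligodendrocyte markers to 307 and 446 CPM and the 10 ChP markers to 87030 and 82567 CPM (Ctrl lowest 141266 CPM). Mitochondrial transcripts made up 25.1% and 21.8% of the KO counts and 3.92% to 8.77% in the other libraries, and by the study's methods RNA integrity was lower in the frozen KO samples. The ependymal list did not move as one, since Aqp4 was at 203 and 215 CPM (Ctrl median 6.89 CPM) and Gja1 at 93.4 and 92.9 CPM (7.28 CPM), while Mia was at 6.89 and 10.9 CPM (32.6 CPM) and Rarres2 at 12.2 and 9.69 CPM (8.89 CPM), and Aqp4 and Gja1 are also expressed by astrocytes. No ependymal marker was at 0. The marker values are scaled to the library total alone, which places KO values lower than the scaling used for the ciliary genes. Dnah5, Dnah12, Dnah1, Dnah3 and Cfap46 were the 5 ciliary genes that were at least 2-fold above the SCNx median in SCNx CT32 (5.21%, all genes 8.33%). Each of them was at least 2-fold above Ctrl in KO, as were 12.4% of all genes. The KO share among all genes high in SCNx CT32 was not counted, so this overlap is not shown to be particular to ciliary genes. Over all genes of at least 10000 nt the median log2 difference of KO from Ctrl was 0.98 and over the shorter genes -0.02. The part of other tissue, of transcript length, of RNA integrity and of the kit in these values was not tested.

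Foxj1, which drives the Cre, was among the 5 lowest, at 63.6 and 79.4 CPM in KO. It was at 134 to 198 CPM in Ctrl and 116 to 185 CPM in SCNx. Both KO libraries thus lay below all 24 (2.37-fold lower, log2 difference -1.24), as for 24.8% of all genes. Among ChP markers, Aqp1 was at 148 and 131 CPM in KO (Ctrl median 466 CPM). Slc4a10, another ChP marker, was at 1400 and 1210 CPM (Ctrl median 1476 CPM). Both markers are scaled to the library total alone, unlike Foxj1, so their KO values stand lower than on the scale of Foxj1. The others of the 5 lowest ciliary genes included Dnaaf3, which is needed to preassemble dynein arms (6.94 and 9.29 CPM, Ctrl lowest 19.4 CPM, -1.60). Cfap61 of the radial spoke (-1.33), Cfap52 inside the doublets (-1.27) and Cfap65 of the central apparatus (-1.18) were the rest. All 3 genes of the nexin-dynein regulatory complex and 7 of the 9 radial spoke genes were below Ctrl, with medians of -0.55 and -0.45. Above Ctrl were 7 of the 9 inner arm genes, with a median of 1.72. Most inner arm genes are heavy chains of at least 10000 nt, and over all genes of that length the median was 0.98. Over all genes tested it was -0.00238, and the part of transcript length in this contrast was not tested. IFT-B and IFT-A had medians of 0.03 and -0.10. Rfx3, the partner of Foxj1 in ciliary transcription, was at 208 and 150 CPM (Ctrl highest 106 CPM, log2 difference 0.95) and Rfx2 at 21.2 and 23.6 CPM (Ctrl lowest 24.3 CPM, -0.36).

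**Figure D5:**
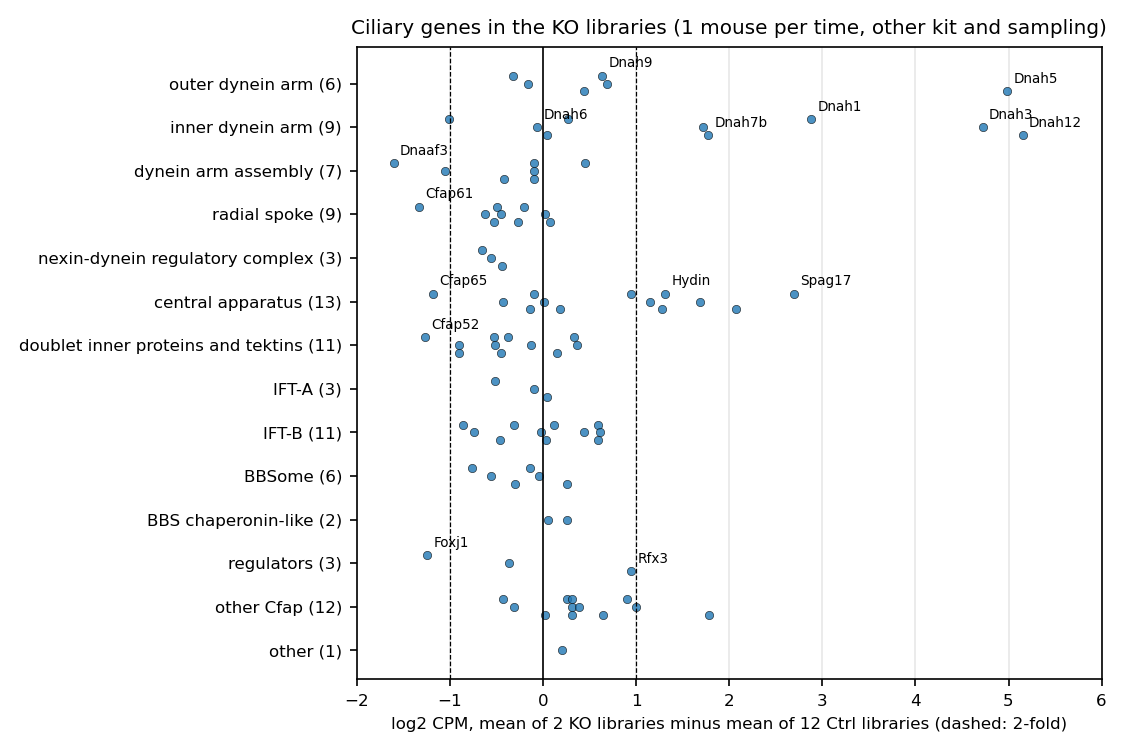
Log2 CPM of the 2 KO libraries, as their mean, minus the mean of the 12 Ctrl libraries for each of the 96 genes, by role, with dashed lines at a 2-fold difference. Dnah12, Dnah5, Dnah3, Dnah1 and Spag17 lie between 2.70 and 5.15, and Foxj1 at -1.24.

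Between the day and the night library of KO the ciliary genes differed in no common direction. The median of ZT7 minus ZT18 was -1.5e-05 on the log2 scale (all genes -0.03), and its median size without sign was 0.19 (all genes 0.23), against 0.19 in Ctrl (all genes 0.14) and 0.11 in SCNx (all genes 0.14). Of the genes with a called rhythm in Ctrl, Hydin gave 1.0 in Ctrl, 0.15 in SCNx and -0.13 in KO, Cfap54 gave 0.94, 0.07 and 0.07, and Spag16 gave 0.61, 0.03 and 0.23. Tekt5 gave 0.73, 0.16 and 0.70, at 4.13 and 2.53 CPM in KO. Each KO value is a difference between 2 mice, and the Ctrl and SCNx values are means over 2 and 4 libraries. The SCNx day libraries include SCNx CT32. The genes named here are some of those called in Ctrl, all with day peaks, so large Ctrl differences follow from that choice. Their smaller values in SCNx and KO are therefore no test of a lost rhythm.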

How the data were processed

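Estimated counts per gene were deposited by the authors for 26 libraries, 24 from Ctrl and SCNx made from polyadenylated RNA and 2 from KO. Per the submitters' processing notes and the study's methods, reads were mapped to GRCm39 and counted per gene with Salmon 1.9.0 (STAR, SAMtools 1.16.1, cutadapt 3.4 and StringTie 2.2.1 are also named), and the counts were not normalized. They were rounded here, since 13.58% of the values were not whole. A gene was tested when its mean reached 1 CPM in each of the Ctrl and SCNx groups. The genes, lists and tests were chosen with earlier results of these data known.

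TMM factors, edgeR 4.0.16 (quasi-likelihood F test, R 4.3.3) and Benjamini-Hochberg adjustment over the 13697 genes were used for the level (one mean per group) and for a 24 h cosine and sine per group in one fit of the 24 libraries. Displayed CPM of the ciliary genes tested, of Arntl and of Ttr use TMM factors over all 26 libraries, and log2 CPM a prior count of 1. Marker CPM and the CPM of the genes under the minimum are scaled to the library total alone. The KO factors were 0.828 (ZT7) and 0.885 (ZT18), so KO values without them stand lower. Ttr in KO ZT7 was at 51402 CPM with the factor and enters the ChP marker sum at 42100 CPM. For KO, log2 differences were counted at 1 and not tested. Amplitudes carry the SE of the cosine fit. Genes are named with values when the rule lists them one by one, when they were called in any test, when their p was among the 5 smallest of a comparison or direction, when their level was the highest of a role, when their KO difference was among the 5 highest or lowest, or when they belong to the Dnah7 copies. Cfap46, Dnah2, Dnah11, the genes under the minimum, the genes highest per kb, the genes added without Ctrl CT4 and SCNx CT32, the pathway genes and the genes whose promoters are shown were named after their values had been seen. The fits were tested on simulated data. Alternatives were DESeq2 1.42.0 and its size factors, limma-trend (limma 3.58.1), no minimum or one of 5 CPM, leaving out each library or a pair of them, a linear trend and, for the level, a block for circadian time. The rhythm programs of the study were not run. The values of 1 gene of the pathway list are not reported here. Transcript lengths and promoters are of GRCm38, which was used for lengths and sequences only.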

Additional observations from a re-analysis of the deposited data

How the results depend on the processing

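The level comparison called 0 ciliary genes under every alternative run. Over all genes tested it called 14 with DESeq2 and 0 to 3 when single libraries were left out, the 3 without SCNx CT32. Circadian times do not pair the mice, since the deviations of same-time libraries correlated between -0.444 and 0.335, and the fit with time as a replicate block also called 0 ciliary genes and 0 of all genes.

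For the rhythm in Ctrl (10 genes, 1459 of all), DESeq2 called 18, leaving out both Ctrl CT4 and SCNx CT32 called 25 (2223 of all), and leaving out single libraries 3 to 21 (918 to 2249 of all). For the rhythm in SCNx (0 and 0), no minimum level called 2 (1384 of all), DESeq2 432 of all genes, and leaving out single libraries 0 and 0 to 6 of all, the 6 without SCNx CT24. For the difference of rhythms (0 and 291), no minimum called 3 (654), DESeq2 1 (589), a linear trend 4 (341), leaving out both Ctrl CT4 and SCNx CT32 3 (504), and single libraries 0 to 2 (163 to 466 of all), with 1 ciliary gene called without SCNx CT8 and 2 without SCNx CT32. The cause was not tested. Without TMM, 11 instead of 7 ciliary genes were at least 2-fold lower in KO, as the median over all genes then stood at -0.24. For the 10 genes named by the smallest p of the level comparison no alternative turned the sign.

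Genes near the minimum of 1 CPM, several dynein heavy chains among them, rest on few counts. With 1 mouse per time differences between mice or dissections cannot be told apart from time. Sequence was read from a build other than that of the counts.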
